A study of Mus musculus with 12 samples.

Results

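The genes described here encode receptors and bridging molecules of efferocytosis, the uptake of dying cells by phagocytes. They are 9 of the 54532 genes in the count table, chosen by name: *Mertk*, *Axl*, *Tyro3*, *Gas6*, *Pros1*, *Mfge8*, *Lrp1*, *Trem2* and *Tyrobp*. All 9 were among the 14894 genes tested. Marrow of wild-type C57BL/6 mice was the source of the cells, which were kept for 5 days in medium with GM-CSF and IL-6, cytokines that drive the formation of immunosuppressive myeloid cells in culture. The 3 groups had 4 libraries each: DMSO vehicle, 10 µM indole-3-propionic acid (IPA, a metabolite that gut bacteria make from tryptophan) and 50 µM IPA. Both cytokines were in the medium of all 12 samples. The labels do not say whether the 4 libraries of a group came from separate animals or cultures, and p-values here measure only the spread between these libraries. The total of counted reads per library ran from 20451312 to 28038612. Within each group, none was a copy of another.

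Dying cells expose phosphatidylserine, a lipid that healthy cells keep on the inner face of the membrane. MERTK, AXL and TYRO3, together called the TAM receptors, are receptor tyrosine kinases that do not bind the lipid themselves. GAS6 and protein S (*Pros1*) bind it with one end and a TAM receptor with the other, and need a vitamin K dependent modification to do so. MFG-E8 bridges the lipid to αv integrins in the same manner. LRP1 is a large endocytic receptor that takes up many ligands, among them calreticulin and apolipoprotein E on dying cells. TREM2 binds lipids and lipoproteins and has no signalling tail of its own, so it pairs with DAP12, the adaptor encoded by *Tyrobp*. In macrophages MERTK is mainly associated with quiescent clearance of dying cells and AXL with inflammatory conditions.

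The sequences just upstream of the genes give a view of what the members share beyond their function. RefSeq promoters of GRCm38.p6 were matched by symbol for 8 of the 9 genes, all but *Tyrobp*. In the 250 bases before each start site, 6 motifs were searched on both strands. They were GGGCGG (the GC box bound by SP1), GAGGAA (a core of sites for PU.1, the main myeloid factor), TGANTCA (AP-1), AGGTCA (a nuclear receptor element), TGACGTCA (the cAMP response element) and TGATGCAA (an element bound by ATF4). The windows of *Mertk*, *Axl*, *Mfge8* and *Lrp1* are printed because these genes differed between the doses of IPA, and that of *Trem2* because it was the only one of the 8 without a GC box. They are written 5′ to 3′ along the gene's own strand. Capitals mark every match, so a match on the opposite strand appears as its reverse complement. No match in these 5 windows overlapped another.

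Mertk, chr2:128698665-128698914, plus strand: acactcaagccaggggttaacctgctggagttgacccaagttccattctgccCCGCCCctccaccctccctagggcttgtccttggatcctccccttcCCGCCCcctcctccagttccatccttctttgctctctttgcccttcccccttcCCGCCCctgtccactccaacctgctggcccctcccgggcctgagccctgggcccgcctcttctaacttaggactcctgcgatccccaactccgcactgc
Axl, chr7:25788734-25788983, minus strand: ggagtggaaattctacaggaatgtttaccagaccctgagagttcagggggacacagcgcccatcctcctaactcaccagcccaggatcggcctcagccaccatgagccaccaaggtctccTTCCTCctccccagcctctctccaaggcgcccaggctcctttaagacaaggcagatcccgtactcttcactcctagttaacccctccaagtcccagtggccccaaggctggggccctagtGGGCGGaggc
Mfge8, chr7:79149061-79149310, minus strand: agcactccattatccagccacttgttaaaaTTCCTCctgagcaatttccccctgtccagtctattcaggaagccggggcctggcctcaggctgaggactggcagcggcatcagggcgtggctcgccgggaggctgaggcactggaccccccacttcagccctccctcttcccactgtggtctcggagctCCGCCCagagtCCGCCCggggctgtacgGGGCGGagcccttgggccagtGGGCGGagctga
Lrp1, chr10:127621149-127621398, minus strand: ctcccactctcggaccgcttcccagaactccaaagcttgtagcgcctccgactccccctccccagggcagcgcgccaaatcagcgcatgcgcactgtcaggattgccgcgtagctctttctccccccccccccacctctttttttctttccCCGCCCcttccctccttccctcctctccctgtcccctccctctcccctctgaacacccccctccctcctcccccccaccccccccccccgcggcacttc
Trem2, chr17:48346151-48346400, plus strand: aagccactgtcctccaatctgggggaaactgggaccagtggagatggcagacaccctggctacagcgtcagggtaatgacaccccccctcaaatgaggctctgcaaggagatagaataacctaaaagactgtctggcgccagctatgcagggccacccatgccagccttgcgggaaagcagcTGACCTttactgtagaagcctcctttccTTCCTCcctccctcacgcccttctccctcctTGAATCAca

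A GC box was found in 7 of the 8 windows, against 32.7% of 32851 promoters of the same length. *Mertk* had 3 of them, *Mfge8* 4, and *Axl* and *Lrp1* 1 each. The PU.1 core was present in *Axl*, *Mfge8* and *Trem2*, against 23.3% of all promoters. *Trem2* also held an AP-1 motif, from 9 to 3 bases before the start site, and a nuclear receptor element. Those 2 motifs occurred in 6.75% and 14.0% of all promoters. Neither TGACGTCA (1.55% of promoters) nor TGATGCAA (0.791%) was found in any of the 8 windows. A match is a run of letters and not a measured binding site.

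The cells in the cultures were checked with marker genes. All 10 macrophage markers were detected, as were all 6 markers of Ly6C-high monocytes and all 10 of neutrophils, so the libraries held a mixture of myeloid cells. In such bulk samples fewer cells of a type and less RNA per cell cannot be told apart. Stromal markers summed to between 2.59 and 6.50 CPM, the TMM-normalized share of a library's reads, over all libraries, and *Dcn* and *Lum* had at most 3 reads in any library. Endothelial markers summed to between 7.14 and 11.7 CPM. The summed macrophage markers were 7678 to 8853 CPM with vehicle, 9357 to 11100 at 10 µM and 9576 to 11310 at 50 µM, higher in every IPA library than in every vehicle library. *Lyz2* (5307 CPM with vehicle, 6916 at 50 µM) and *Ctsb* (1206 and 1413 CPM) made up most of this sum. Of the 10 macrophage markers 3 rose and 2 fell at 50 µM against vehicle. *Csf1r* fell by 0.34 on the log2 scale (adjusted p = 0.00769) and *Fcgr1* fell by 0.52 (adjusted p = 0.00625). The summed Ly6C-high monocyte markers were 3258 to 4153 CPM with vehicle, 4601 to 5544 at 10 µM and 2798 to 3594 at 50 µM. Most of the higher sum at 10 µM was *Fn1* (1451 CPM with vehicle, 2554 at 10 µM), the only 1 of these 6 markers called there. *Ccr2* (346.9 and 505.1 CPM, log2 fold change 0.54, adjusted p = 0.0975), *F13a1* (0.70), *Vcan* (0.21) and *Hp* (0.06) also had values above 0, and *Ly6c2* had -0.12. Neutrophil markers summed to 20470 to 28920, 18980 to 21950 and 14290 to 19880 CPM in the same order. Osteoclast markers summed to 134 to 172, 195 to 246 and 156 to 186 CPM, with every 10 µM library above all others. B cell markers summed to 18.5 to 25.9, 22.6 to 32.9 and 36.5 to 56.7 CPM, and megakaryocyte and platelet markers to 271 to 311, 266 to 333 and 341 to 394 CPM. The part of these shifts in the differences described here was not tested.

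Some libraries also differed in how their counts followed gene length. Counts fell with exon length in vehicle replicate 4 (slope of -0.0707 on the log2 scale per doubling of length), 50 µM replicate 3 (-0.0695) and 10 µM replicate 1 (-0.0644). The other 9 slopes lay between -0.0191 and 0.0634. This touches *Lrp1*, the member with the longest exons (17717 bases), and *Tyrobp*, the one with the shortest (667 bases).

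The first question was whether IPA changed these genes, and at which dose. According to the paper, cell viability in such cultures was slightly lower at the higher dose of IPA and not affected at the lower dose. The part of viability in the differences that involve the higher dose was not tested. Between 50 µM and 10 µM IPA, 4 of the 9 genes passed edgeR's quasi-likelihood test with an adjusted p under 0.05: *Axl* was higher at 50 µM, and *Mertk*, *Mfge8* and *Lrp1* were lower. In this comparison 15.4% of all tested genes passed, 7.52% higher and 7.85% lower. The libraries of the groups did not overlap for 1 member that was higher, *Axl* (9.43% of all tested genes), and for 4 that were lower, the 3 called and *Gas6* (10.9%). Between 50 µM IPA and vehicle, *Axl* alone passed, against 13.5% of all tested genes. It was also the only member whose groups did not overlap there, in the higher direction as 9.45% of all genes. Between 10 µM IPA and vehicle none of the 9 passed, against 0.410% of all tested genes (61 genes). Of the 9, 5 had an unadjusted p under 0.05 there, against 8.78% of all tested genes.

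At 10 µM all 9 log2 fold changes against vehicle were above 0, with a median of 0.41, where the median of all tested genes was -0.01. The 10 macrophage markers were also all above 0 there (median 0.345), as were the 5 tested osteoclast markers (median 0.737). Of the 10 neutrophil markers 1 was above 0 (median -0.188). In *Mertk*, *Mfge8* and *Trem2* every 10 µM library lay above every vehicle library, as in 3.57% of all tested genes. At 50 µM, 6 of the 9 values against vehicle were above 0 and 3 below, with a median of 0.12 (0.01 over all genes). Between the doses 3 were above 0 and 6 below, with a median of -0.30 (0.01 over all genes). The 3 comparisons share their groups pairwise and are not independent of each other.

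**Figure D1:**
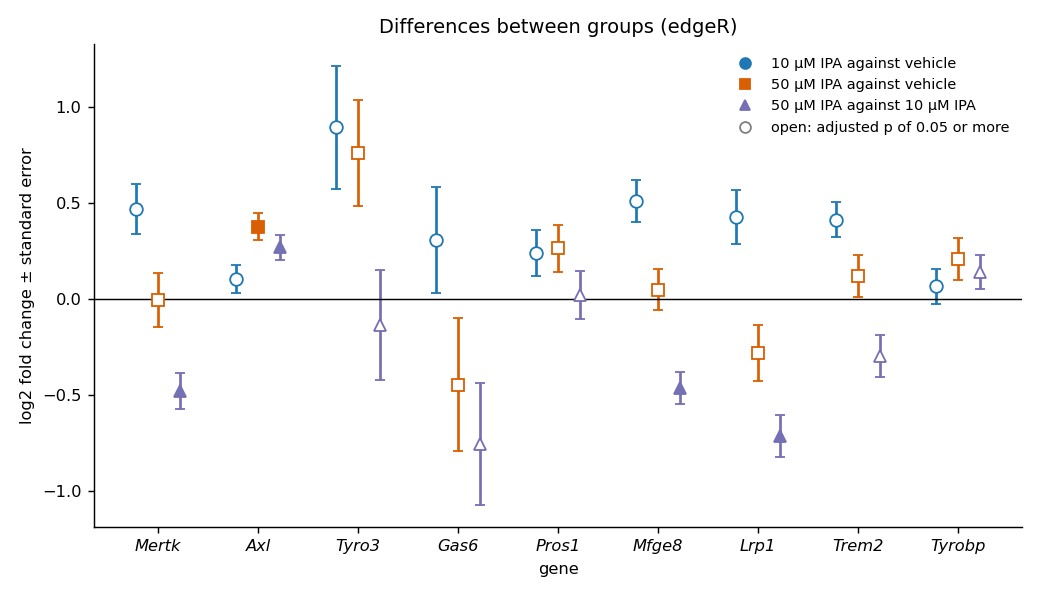
Differences between groups for the 9 genes, as log2 fold change on the vertical axis with bars of 1 standard error from edgeR's fit. Filled symbols passed an adjusted p of 0.05: *Axl* at 50 µM against vehicle, and *Mertk*, *Axl*, *Mfge8* and *Lrp1* between the doses, of which only *Axl* lies above 0.

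The count at 10 µM depended on the method and on single libraries. DESeq2's Wald test called *Mfge8* (adjusted p = 0.00239) and *Trem2* (adjusted p = 0.00584), among 250 of 13450 genes. So did edgeR without vehicle replicate 4 (adjusted p = 0.0400 and 0.0386), among 122 of 14894 genes. At 50 µM against vehicle, 3 members passed without vehicle replicate 4: *Axl*, *Tyro3* and *Lrp1*, among 2689 of 14894 genes.

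*Mertk* (ENSMUSG00000014361, chromosome 2 of GRCm38, 128698956 to 128802894, plus strand) encodes the TAM receptor most often linked to clearance by macrophages. With vehicle its 4 libraries had 26.7, 21.5, 24.1 and 16.3 CPM. At 10 µM they had 28.9, 30.0, 32.9 and 30.6 CPM, and at 50 µM 22.9, 25.1, 20.7 and 18.9 CPM. The 10 µM group thus lay above both others without overlap, while vehicle and 50 µM overlapped. From 10 µM to 50 µM *Mertk* fell by 0.48 on the log2 scale (standard error 0.09, adjusted p = 0.00285), from 30.6 ± 1.70 to 21.9 ± 2.67 CPM (SD, n = 4). In all 16 alternative fits this difference passed the threshold. Against vehicle (22.1 ± 4.44 CPM, SD, n = 4) the value at 10 µM was 0.47 (standard error 0.13, adjusted p = 0.214), and the widest spread was that of the vehicle group. At 50 µM against vehicle it was -0.01, with an interval of 2 standard errors from -0.29 to 0.27.

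*Axl* (ENSMUSG00000002602, chromosome 7, 25757273 to 25788705, minus strand) had another order of groups, with the highest values at 50 µM. Vehicle libraries had 318.9, 308.1, 284.9 and 272.9 CPM. Values at 10 µM were 337.5, 334.8, 315.1 and 285.0 CPM, overlapping with vehicle. At 50 µM they were 388.7, 400.0, 360.0 and 380.3 CPM, above every library of the other groups. *Axl* rose 1.30-fold from vehicle to 50 µM (296 ± 21.1 to 382 ± 16.9 CPM, SD, n = 4), which is 0.38 on the log2 scale (standard error 0.07, adjusted p = 0.00388). It also rose from 10 µM to 50 µM, by 0.27 (standard error 0.07, adjusted p = 0.0115). At 10 µM against vehicle the value was 0.10, with an interval of 2 standard errors from -0.05 to 0.25. The call against vehicle held in all 16 alternative fits, with an adjusted p of at most 0.0223.

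*Tyro3* (ENSMUSG00000027298, chromosome 2, 119797733 to 119818104, plus strand), the TAM receptor best known from the nervous system, was expressed at a low level. Its libraries had 1.74, 1.52, 1.03 and 2.03 CPM with vehicle, 1.88, 3.92, 4.03 and 1.97 at 10 µM, and 1.86, 2.82, 2.48 and 3.49 at 50 µM. The 10 µM group fell into a low pair and a high pair, and the low pair lay within the vehicle range. Log2 fold changes against vehicle were 0.89 at 10 µM (standard error 0.32, adjusted p = 0.390) and 0.76 at 50 µM (standard error 0.28, adjusted p = 0.0891). Without vehicle replicate 4 the value at 50 µM was 0.90 and passed (adjusted p = 0.0460).

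**Figure D2:**
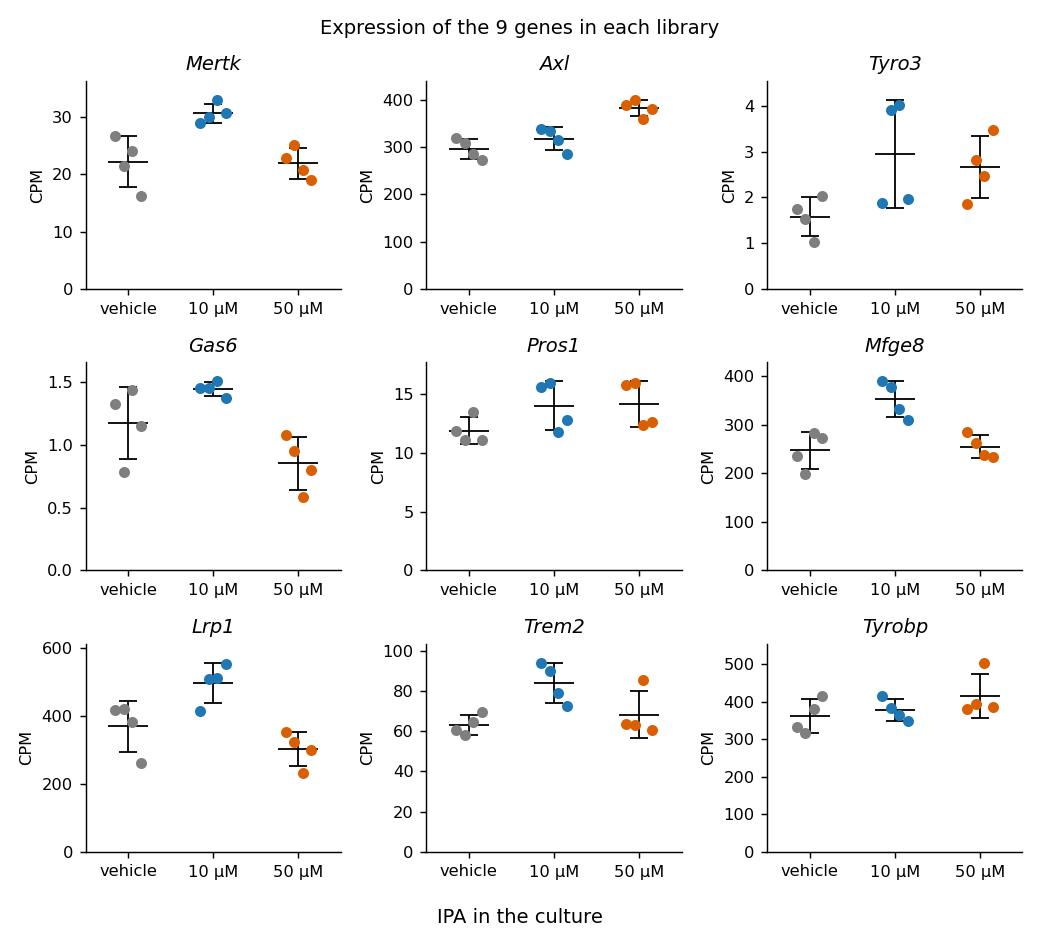
TMM-normalized CPM (vertical axes, starting at 0) of each gene in the 4 libraries of each group, with the mean and SD in black. The 10 µM libraries of *Mertk*, *Mfge8* and *Trem2* sit above every vehicle library, and the 50 µM libraries of *Axl* above all others.

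Per kilobase of exon, the ligands of the TAM receptors were well below *Axl*, with means of 0.460 (*Gas6*) and 2.91 (*Pros1*) against 58.9 CPM per kb with vehicle. *Gas6* (ENSMUSG00000031451, chromosome 8, 13465374 to 13494490, minus strand) had 1.32, 0.780, 1.43 and 1.15 CPM with vehicle, 1.45, 1.45, 1.51 and 1.37 at 10 µM, and 1.08, 0.953, 0.583 and 0.798 at 50 µM. Every 50 µM library was below every 10 µM library. These values rest on 12 to 40 reads per library, and the difference between the doses was -0.75 on the log2 scale (standard error 0.32, adjusted p = 0.125). Against vehicle the value was 0.30 at 10 µM, with an interval of 2 standard errors from -0.25 to 0.86, and -0.45 at 50 µM, from -1.14 to 0.25. None of the 3 comparisons of *Gas6* passed. *Gas6* shares exon bases with *Tmem255b* on the opposite strand, which had 1 read in all 12 libraries together.

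*Pros1* (ENSMUSG00000022912, chromosome 16, 62854307 to 62929346, plus strand), encodes the anticoagulant protein S. Its libraries had 11.8, 11.1, 13.5 and 11.1 CPM with vehicle, 15.6, 15.9, 11.8 and 12.8 at 10 µM, and 15.7, 15.9, 12.4 and 12.6 at 50 µM. The groups overlapped in each comparison. Log2 fold changes were 0.24 at 10 µM (adjusted p = 0.634) and 0.26 at 50 µM (adjusted p = 0.179) against vehicle, and 0.02 between the doses, with an interval of 2 standard errors from -0.24 to 0.27.

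*Mfge8* (ENSMUSG00000030605, chromosome 7, 79133768 to 79149060, minus strand), whose product bridges dying cells to integrins, had the highest level per kilobase of the 3 bridging molecules among the 9 genes (52.8 CPM per kb with vehicle). With vehicle its libraries had 236.6, 199.4, 283.5 and 271.8 CPM. At 10 µM they had 389.4, 377.0, 332.2 and 310.7 CPM, all above the vehicle range. At 50 µM they had 285.1, 263.3, 237.3 and 234.4 CPM, all below the 10 µM range and overlapping with vehicle. *Mfge8* fell by 0.46 on the log2 scale from 10 µM to 50 µM (standard error 0.08, adjusted p = 0.00126), from 352 ± 37.1 to 255 ± 23.9 CPM (SD, n = 4). Against vehicle (248 ± 37.9 CPM, SD, n = 4) the value at 10 µM was 0.51 (standard error 0.11, adjusted p = 0.0908). Over the alternatives its adjusted p at 10 µM lay between 0.00239 and 0.390, and 4 of 16 passed. At 50 µM against vehicle the value was 0.05, with an interval of 2 standard errors from -0.17 to 0.27.

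*Lrp1* (ENSMUSG00000040249, chromosome 10, 127538161 to 127621148, minus strand) had the largest difference between the doses among the called members. Its libraries had 416.4, 421.2, 380.9 and 260.4 CPM with vehicle, 413.5, 508.1, 513.0 and 553.9 at 10 µM, and 352.4, 322.3, 233.6 and 300.8 at 50 µM. Every 50 µM library was below every 10 µM library, while vehicle replicate 4 lay within the 50 µM range. From 10 µM to 50 µM *Lrp1* fell by 0.71 on the log2 scale (standard error 0.11, adjusted p = 0.000360), from 497 ± 59.4 to 302 ± 50.4 CPM (SD, n = 4). The low values of vehicle replicate 4, 50 µM replicate 3 and 10 µM replicate 1 belong to the 3 libraries in which counts fell most with exon length.

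Against vehicle the calls of *Lrp1* changed with the setting. At 10 µM it stood 0.43 above vehicle on the log2 scale (standard error 0.14, adjusted p = 0.322). With an offset for the length trend of each library, which was added once the values were known, it was 0.47 and passed (adjusted p = 0.00984). At 50 µM the value was -0.28 (standard error 0.15, adjusted p = 0.231), and without vehicle replicate 4 it was -0.42 and passed (adjusted p = 0.00990). The fall from 10 µM to 50 µM passed in all 16 alternatives, with values between -0.80 and -0.61.

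The falls of *Mertk*, *Mfge8* and *Lrp1* between the doses stood beside shifts in the markers of several cell types. By edgeR's test all 6 markers of Ly6C-high monocytes were lower at 50 µM than at 10 µM. On the log2 scale *F13a1* fell by 2.63, *Ccr2* fell by 1.31 and *Vcan* fell by 0.96. Of the 10 macrophage markers 5 were lower and 1, *Adgre1*, was higher (log2 fold change 0.60, adjusted p = 1.60e-05). *Csf1r* was among the lower ones (-0.44, adjusted p = 0.000297). Of 10 neutrophil markers 6 were lower and none higher, with a median of -0.48. Of 5 tested osteoclast markers 2 were lower and none higher. All 5 tested B cell markers were higher, as was 1 each of the dendritic cell, megakaryocyte and mast cell lists. Per 1000 CPM of summed macrophage markers, *Lrp1* had 37.3 to 59.2 CPM at 10 µM and 20.7 to 36.2 at 50 µM, and *Mfge8* 33.2 to 36.7 and 21.0 to 29.3, both without overlap. With vehicle *Mfge8* had 25.96 to 33.21, which met the lowest 10 µM value (33.20). For *Mertk* the ranges were 2.60 to 3.42 and 1.83 to 2.62, which overlapped narrowly, and with vehicle 1.84 to 3.25, which overlapped with 10 µM. *Axl* had 30.8 to 40.1 with vehicle, 30.4 to 32.8 at 10 µM and 31.8 to 41.8 at 50 µM, so on this scale 50 µM overlapped with both other groups.

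*Trem2* (ENSMUSG00000023992, chromosome 17, 48346401 to 48354147, plus strand) had 60.5, 57.9, 64.6 and 69.3 CPM with vehicle, 93.9, 89.9, 79.0 and 72.5 at 10 µM, and 63.5, 63.1, 85.5 and 60.6 at 50 µM. Every 10 µM library lay above every vehicle library. Of the 50 µM libraries 3 lay within the vehicle range, and replicate 3 stood apart from them. At 10 µM against vehicle the difference was 0.41 on the log2 scale (standard error 0.09, adjusted p = 0.0975), from 63.0 ± 5.00 to 83.8 ± 9.85 CPM (SD, n = 4). Between the doses it was -0.30 (standard error 0.11, adjusted p = 0.0786). Without 50 µM replicate 3 it was -0.42 and passed (adjusted p = 0.00573), and without 10 µM replicate 4 it was -0.36 and passed (adjusted p = 0.0401). Per 1000 CPM of summed macrophage markers *Trem2* had 7.37 to 7.83 CPM with vehicle and 7.75 to 8.76 at 10 µM, which overlapped.

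*Tyrobp* (ENSMUSG00000030579, chromosome 7, 30413760 to 30417585, plus strand), the signalling partner of TREM2 and of many other myeloid receptors, had 331.4, 317.0, 380.4 and 415.2 CPM with vehicle. It had 415.9, 382.6, 364.2 and 349.2 at 10 µM and 379.7, 392.6, 503.3 and 385.1 at 50 µM. All 3 groups overlapped. Per 1000 CPM of summed macrophage markers it had 40.4 to 46.9 CPM with vehicle and 37.3 to 37.9 at 10 µM, lower without overlap, and 39.0 to 44.5 at 50 µM. Log2 fold changes were 0.07 at 10 µM (interval of 2 standard errors from -0.12 to 0.25) and 0.21 at 50 µM (from -0.01 to 0.43) against vehicle, and 0.14 between the doses (from -0.04 to 0.32). As with *Trem2*, 50 µM replicate 3 was the highest library of its group. Without it the values at 50 µM were 0.10 against vehicle and 0.03 against 10 µM. With the length offset they were 0.11 and 0.10, and the value at 10 µM against vehicle was 0.01. None of these passed.

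Ratios of genes that act together were compared within each library, where the scaling of the library has no part. There were 9 such tests, 3 ratios in 3 comparisons, each a two-sided exact permutation test on log2 ratios. With 4 against 4 libraries the smallest p is 0.0286, which becomes 0.0429 after adjustment over the 9 tests here. That adjusted value depends on how many of the 9 tests reached the smallest p. The tests share libraries, so their adjusted values do not stand alone.

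*Mertk* relative to *Axl* differed at 10 µM from both other groups. The ratio was 0.0836, 0.0698, 0.0845 and 0.0596 with vehicle, 0.0857, 0.0895, 0.105 and 0.107 at 10 µM, and 0.0588, 0.0627, 0.0575 and 0.0497 at 50 µM. It was higher at 10 µM than with vehicle by 0.39 on the log2 scale, without overlap (exact permutation p = 0.0286, adjusted p = 0.0429). From 10 µM to 50 µM it fell by 0.76 (exact permutation p = 0.0286, adjusted p = 0.0429). Between 50 µM and vehicle the value was -0.37 (exact permutation p = 0.0571, adjusted p = 0.0735).

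*Trem2* relative to its adaptor gene *Tyrobp* followed the same order of groups. The ratio lay between 0.167 and 0.183 with vehicle, 0.208 and 0.235 at 10 µM, and 0.157 and 0.170 at 50 µM. It was higher at 10 µM than with vehicle by 0.34 on the log2 scale, and from 10 µM to 50 µM it fell by 0.43, each without overlap and with an exact permutation p of 0.0286 and an adjusted p of 0.0429. In this ratio 50 µM replicate 3 (0.170) did not stand apart, although both genes were highest in it. Between 50 µM and vehicle the log2 difference was -0.10 (exact permutation p = 0.143, adjusted p = 0.161).

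For the ligands, *Gas6* relative to *Pros1* was lowest at 50 µM. It lay between 0.0705 and 0.112 with vehicle, 0.0912 and 0.128 at 10 µM, and 0.0471 and 0.0683 at 50 µM. At 50 µM the log2 ratio was lower by 0.71 than with vehicle and by 0.81 than at 10 µM, each with an exact permutation p of 0.0286 and an adjusted p of 0.0429. The 10 µM and vehicle groups overlapped (log2 difference 0.11, exact permutation p = 0.600, adjusted p = 0.600). The few reads of *Gas6* limit the precision of this ratio.

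**Figure D3:**
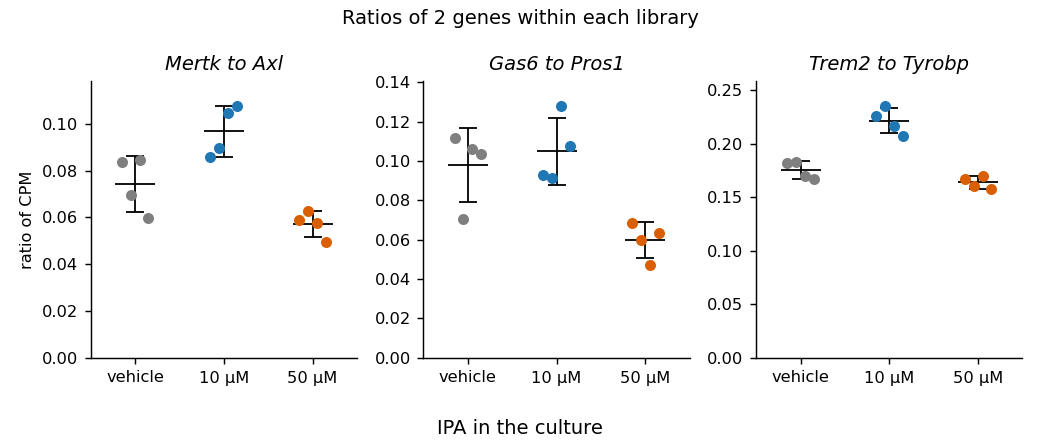
Ratio of CPM of 2 genes within each library (vertical axes, starting at 0), with the mean and SD of each group in black. *Mertk* to *Axl* and *Trem2* to *Tyrobp* are highest at 10 µM, and *Gas6* to *Pros1* at 50 µM (0.0471 to 0.0683) lies below both other groups.

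Levels of different genes were compared per kilobase of exon. *Tyrobp* was highest in each group, with a mean of 541 CPM per kb with vehicle, 567 at 10 µM and 622 at 50 µM. *Axl* (58.9 CPM per kb with vehicle) and *Mfge8* (52.8) came next and overlapped with vehicle and at 10 µM. At 50 µM *Axl* (76.0) was clear of *Mfge8* (54.3). *Lrp1* followed (20.9, 28.1 and 17.1 CPM per kb in the order of dose) and then *Trem2* (12.8, 17.0 and 13.8), and their ranges overlapped at 50 µM. *Mertk* had 5.10, 7.06 and 5.05 CPM per kb, and *Pros1* 2.91, 3.43 and 3.46. *Gas6* and *Tyro3* were lowest in every group, with means between 0.255 and 0.567 CPM per kb and overlapping ranges. With the length of the principal transcript in place of all exon bases, *Mfge8* (117 CPM per kb with vehicle) was above *Axl* (69.5), and *Trem2* (57.9) above *Lrp1* (24.8). The principal transcript of *Trem2* has 1088 of its 4946 exon bases. The places of these genes in the order therefore depend on the length used.

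Across the 12 libraries some members varied together, as a description over libraries that include all 3 groups. Pearson's r of log2 CPM was 0.85 between *Mertk* and *Lrp1*, 0.76 between *Mfge8* and *Trem2* and 0.75 between *Gas6* and *Mfge8*. *Axl* had r of -0.04 with *Mertk* and -0.10 with *Mfge8*. Between *Lrp1* and *Tyrobp* r was -0.69. Among about 10195 genes that averaged 5 CPM or more, those most like *Mertk* were *Cdk14* (0.91) and *Flt1* (0.89), and those most like *Axl* were *Plxdc2* (0.99) and *Ccl22* (0.98). *Mfge8* was most like *Slc39a1* (0.955) and *Psap* (0.950), which encodes prosaposin, and *Lrp1* most like *Shtn1* (0.951) and *Igf2r* (0.945). *Trem2* was nearest to *Ctsh* (0.941), a lysosomal protease gene, and *C1qb* (0.923). *Tyrobp* was most like the ribosomal protein genes *Rpl35a* (0.981) and *Rpl26* (0.980). For *Pros1* they were *Slamf8* (0.931) and *Pdcd1lg2* (0.913), for *Gas6* *Il7r* (0.938) and *Zdhhc9* (0.932), and for *Tyro3* *Npl* (0.864) and *Pctp* (0.830).

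The other genes of apoptotic cell clearance were followed in 10 lists with 120 genes, of which 111 were tested. At 10 µM 5 of the 111 were higher than with vehicle and none lower (4.50%, against 0.410% of all tested genes). At 50 µM 14 were higher and 23 lower than with vehicle (33.3%, against 13.5%). Between the doses 9 were higher and 34 lower at 50 µM (38.7%, against 15.4%). The medians of the 111 log2 fold changes were 0.04, -0.04 and -0.11 in this order. The 5 calls at 10 µM changed with single libraries: 0 were called without vehicle replicate 1 or without replicate 1, 2 or 3 of the 10 µM group, 1 without vehicle replicate 2 or 3, 3 without 10 µM replicate 4 and 6 without vehicle replicate 4. DESeq2 called 13. Leaving out 1 library gave between 22 (without vehicle replicate 3) and 40 calls at 50 µM, with 24 without 50 µM replicate 2, and between 32 and 42 between the doses.

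**Figure D4:**
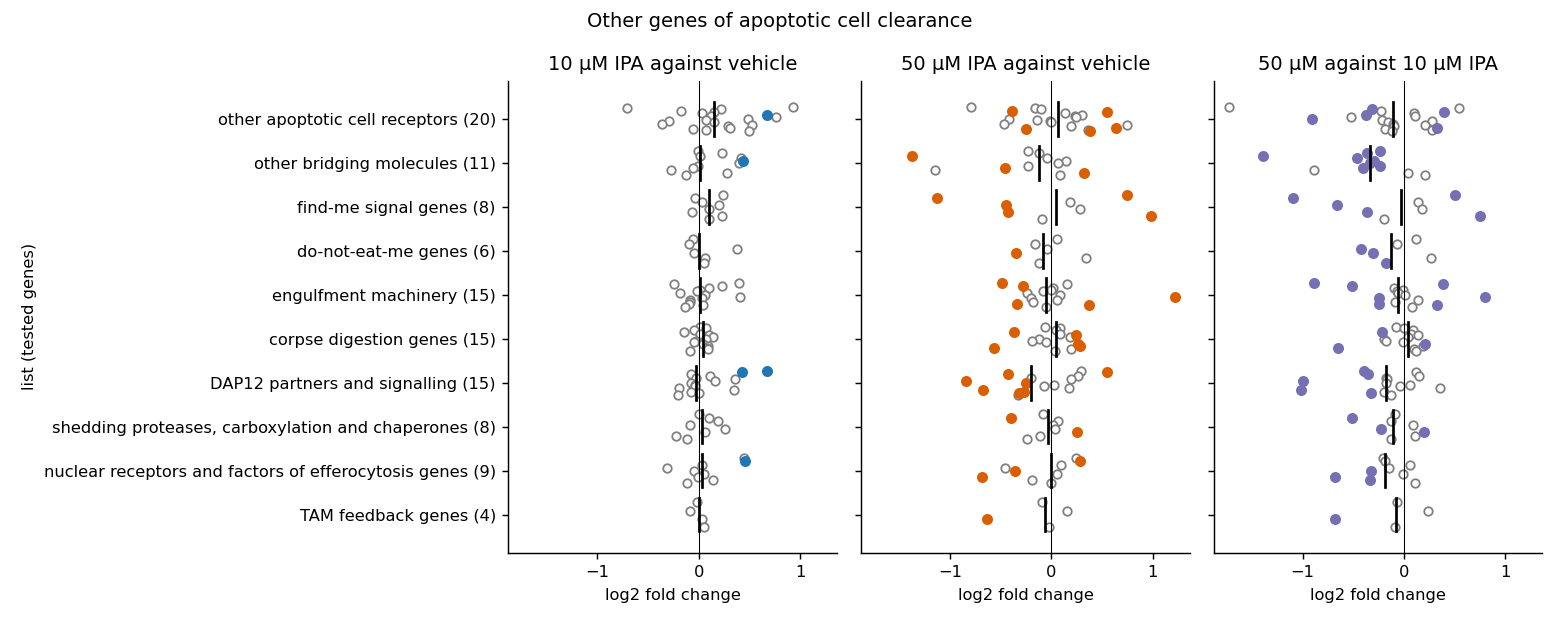
Log2 fold change (horizontal axis) of the other 111 tested genes of apoptotic cell clearance by list, with the number of tested genes in brackets, in the 3 comparisons. Filled points passed an adjusted p of 0.05, open points did not, and black bars are list medians; in other bridging molecules 8 of 11 genes fell between the doses and none rose (4 to 7 fell with 1 library left out).

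Among 20 other receptors for dying cells, 1 rose at 10 µM, and 3 rose and 2 fell at 50 µM against vehicle. *Cd36*, a scavenger receptor that also acts with integrins, rose at 10 µM from 109 ± 14.5 to 174 ± 29.1 CPM (SD, n = 4; log2 fold change 0.68, adjusted p = 0.0450). At 50 µM *Olr1*, a receptor for oxidized lipoproteins, rose by 0.64 (adjusted p = 0.000165) and *Cd300lb*, an activating receptor for phosphatidylserine, by 0.55 (adjusted p = 0.000617). *Stab1*, another receptor for that lipid, rose by 0.38 (adjusted p = 0.0326). The inhibitory receptor gene *Cd300a* fell by 0.39 (adjusted p = 0.00828). The *Cd300* genes are similar to one another, and how reads shared between copies were counted was not given.

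Of 11 other bridging molecules 8 fell and none rose between the doses, with a median log2 fold change of -0.33. With 1 library left out 4 to 7 fell, 4 without 10 µM replicate 2 or 50 µM replicate 4 and 5 without 10 µM replicate 1 or 50 µM replicate 2. 1 rose without 10 µM replicate 4. *Apoe*, which encodes apolipoprotein E, a ligand of LRP1 and TREM2, fell most at 50 µM against vehicle, from 19.3 ± 8.02 to 7.42 ± 1.12 CPM (SD, n = 4; log2 fold change -1.38, adjusted p = 0.00339). *Clu*, which encodes clusterin, fell by 0.45 (adjusted p = 0.0323), and *Lgals3*, which encodes galectin-3, rose by 0.32 (adjusted p = 0.0338). *C1qb*, a chain of the complement protein C1q, was the 1 gene of the list that rose at 10 µM (0.44, adjusted p = 0.0474), from 134 ± 6.09 to 182 ± 20.5 CPM (SD, n = 4). From 10 µM to 50 µM it fell by 0.30 (adjusted p = 0.0250), as did *C1qa* by 0.46 and *C1qc* by 0.33. The C1q genes were also macrophage markers here.

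Of 8 genes for find-me signals, through which dying cells attract phagocytes, 2 rose and 3 fell at 50 µM against vehicle. The fractalkine receptor gene *Cx3cr1* fell by 1.13 (adjusted p = 0.000296), from 8.87 ± 1.44 to 4.04 ± 0.251 CPM (SD, n = 4). Its ligand gene *Cx3cl1* rose by 0.75 (adjusted p = 0.00240). *S1pr1*, a receptor for sphingosine-1-phosphate, rose by 0.98 (adjusted p = 0.00134), and the nucleotide receptor gene *P2ry12* fell by 0.45 (adjusted p = 0.0134). None passed at 10 µM, where 1 had an unadjusted p under 0.05, and *Gpr132*, a receptor gene for lysophosphatidylcholine, had a log2 fold change of 0.04 (adjusted p = 0.946).

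Of 6 genes of signals that inhibit engulfment, *Pirb* fell at 50 µM against vehicle (0.35 on the log2 scale, adjusted p = 0.0172), and none passed at 10 µM, where 1 had an unadjusted p under 0.05. *Pirb* has near copies in its gene family. *Sirpa*, the receptor for CD47, had values of 0.05 at 10 µM (adjusted p = 0.885) and -0.13 at 50 µM (adjusted p = 0.219).

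In the engulfment machinery, 2 of 15 genes rose and 3 fell at 50 µM against vehicle. *Ptk2*, which encodes focal adhesion kinase, rose by 1.22 (adjusted p = 0.000223), from 5.32 ± 0.717 to 12.3 ± 2.24 CPM (SD, n = 4). *Vav2* rose by 0.37 (adjusted p = 0.0287) and *Vav1* fell by 0.34 (adjusted p = 0.00731). *Abca1*, the exporter of the cholesterol taken up with dying cells, fell by 0.49 (adjusted p = 0.0192). Between the doses *Abca1* fell by 0.89 (adjusted p = 8.23e-05), from 160 ± 17.6 to 85.8 ± 17.3 CPM (SD, n = 4). None of the 15 passed at 10 µM, where 4 had an unadjusted p under 0.05. *Rac2*, the gene with the highest CPM of the list, had a value of -0.09 (adjusted p = 0.786).

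Of 15 genes for the digestion of engulfed cells 3 rose and 2 fell at 50 µM against vehicle. *Slc29a3*, a lysosomal nucleoside transporter, fell by 0.56 (adjusted p = 0.00118), and *Cybb*, the catalytic subunit of the phagocyte NADPH oxidase, by 0.36 (adjusted p = 0.00280). *Rubcn*, needed for phagocytosis that uses LC3, rose by 0.28 (adjusted p = 0.0279) and *Rab7*, a GTPase of late endosomes, by 0.26 (adjusted p = 0.0141). None passed at 10 µM, where 1 had an unadjusted p under 0.05 (*Cybb*, log2 fold change -0.15, adjusted p = 0.353).

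The list of partners of DAP12 and its signalling had 1 gene that rose and 6 that fell at 50 µM against vehicle, of 15. *Ms4a6d* fell by 0.84 (adjusted p = 0.000173) and *Sirpb1a* by 0.67 (adjusted p = 0.0161). *Clec5a*, a receptor that signals through DAP12, fell by 0.43 (adjusted p = 0.00107), from 382 ± 3.29 to 282 ± 18.8 CPM (SD, n = 4). *Cd300ld* rose at 10 µM by 0.43 (adjusted p = 0.0375) and at 50 µM by 0.55 (adjusted p = 0.000492). A place in this list, as of *Cd300ld* or *Ms4a6d*, is not evidence that a gene signals through DAP12. *Blnk*, an adaptor downstream of SYK, rose at 10 µM by 0.68 (adjusted p = 0.0263). *Trem2* and *Tyrobp* themselves were not called at 50 µM against vehicle.

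TAM receptors are also set by shedding from the cell surface. Of 8 genes for the shedding proteases, carboxylation and chaperones, 1 rose and 1 fell at 50 µM against vehicle. *Adam17*, whose protease cuts MERTK, fell by 0.40 (adjusted p = 0.00148), from 239 ± 6.73 to 180 ± 8.79 CPM (SD, n = 4). *Rhbdf2*, which encodes iRhom2, a partner that ADAM17 needs, rose by 0.26 (adjusted p = 0.0243). At 10 µM none passed, 2 had an unadjusted p under 0.05, and *Adam10* had a value of 0.00 (adjusted p = 0.998).

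Among 9 nuclear receptors and factors of efferocytosis genes, *Pparg*, a nuclear receptor for fatty acids, fell at 50 µM against vehicle by 0.68 (adjusted p = 0.00165), from 32.6 ± 3.95 to 20.3 ± 2.65 CPM (SD, n = 4). The glucocorticoid receptor gene *Nr3c1* fell by 0.36 (adjusted p = 0.00548). Of 4 tested genes of feedback by TAM receptors, *Socs3*, a suppressor of cytokine signalling, fell at 50 µM against vehicle by 0.64 (adjusted p = 0.000103), from 163 ± 6.51 to 105 ± 7.04 CPM (SD, n = 4). At 10 µM none of the 4 had an unadjusted p under 0.05.

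Some of these calls at 50 µM against vehicle were lost when 1 library was left out, in 8 edgeR fits per gene. *Stab1* (highest adjusted p 0.0920, without 50 µM replicate 4), *Lgals3* (0.101, without 50 µM replicate 3) and *Rubcn* (0.0847, without 50 µM replicate 1) passed in 2 of the 8. *Rhbdf2* (0.0834, without vehicle replicate 3) passed in 3. *Clu* (0.0892) and *Vav2* (0.119), both without 50 µM replicate 2, and *Abca1* (0.0701, without 50 µM replicate 4) passed in 4. *Pirb* (0.0594, without 50 µM replicate 4) and *Sirpb1a* (0.0543, without vehicle replicate 3) passed in 6, and *Rab7* (0.0515, without vehicle replicate 3) in 7. Counted by list, the calls at 50 µM against vehicle ran over the 8 fits from 3 to 5 among other receptors (5 with all libraries). They ran from 1 to 3 among other bridging molecules (3) and from 2 to 6 in the engulfment machinery (5). In corpse digestion they ran from 2 to 7 (5) and in the DAP12 list from 4 to 8 (7). The 5 calls among find-me genes were 5 in each. The lowest counts came without vehicle replicate 3 in each of those 5 lists, alone or with other libraries. Every other gene named from the lists with a call at 50 µM against vehicle passed in all 8. Between the doses the fall of *C1qb* passed in 4 of 8 (highest adjusted p 0.0902) and that of *C1qc* in 7 of 8 (0.0548), both without 50 µM replicate 4 at the highest.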

How the data were processed

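RNA-seq of 12 samples of cultured bone marrow cells (4 per group) was processed. The deposited values are the authors' raw counts per Ensembl gene, made with featureCounts after trimming (Atropos) and alignment (hisat2, mm10), and were neither normalized nor filtered. The strand setting of the counting is not given in the sources used here. Groups, doses and replicate numbers came from the sample labels; the title of 10 µM replicate 3 repeats that of replicate 2, so its library name was used.

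A gene was tested if 2 or more of the 12 libraries exceeded 0.5 CPM (14894 of 54532). Each pair of groups was compared on its 8 libraries with edgeR 4.0.16 (TMM, glmQLFit, glmQLFTest) in R 4.3.3. Values of p were adjusted across the tested genes (Benjamini-Hochberg), and a call needed an adjusted p under 0.05. CPM was TMM-normalized over the 12 libraries. The standard error of a log2 fold change was derived from the F statistic. Ratios were compared by exact permutation tests. Positions and exon lengths are those of GENCODE M21 (GRCm38), and promoters those of RefSeq (GRCm38.p6). The script was tested on simulated data.

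The 9 genes, the lists and the markers were chosen with earlier results of these data known. Named beside the 9 were, in each list and for each comparison with vehicle, up to 4 called genes of largest log2 fold change, or the gene of highest level where none was called, and the genes of highest correlation with each member; C1qa, C1qc and the cell type markers named were added for their place in a list. A gene named by this rule is not reported here. Alternatives were DESeq2 1.42.0, limma-voom (limma 3.58.1), DESeq2's size factors, a minimum of 10 counts per library, no filter, a fit of all 12 libraries, a block for replicate numbers, each library left out and, for ratios, 1 CPM added. An offset for the trend on exon length (lowess, span 0.3) was added after the data were seen, as were the alternatives for the lists.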

Additional observations from a re-analysis of the deposited data

Results flagged for a closer look

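Of 36 groups of 4 libraries checked for the 9 genes and 3 ratios, 2 held a library far from the others, and chance gives about 1 in 20. Both were 50 µM replicate 3. *Trem2* had 85.5 CPM in it, where the other 3 libraries had 60.6 to 63.5 CPM (gap over range 0.885). *Tyrobp* had 503.3 CPM, where the others had 379.7 to 392.6 CPM (gap over range 0.896). In the same library *Lrp1* was lowest of its group (233.6 CPM), counts fell with exon length (slope -0.0695) and the summed macrophage markers were highest of all 12 libraries (11310 CPM). The ratio of *Trem2* to *Tyrobp* in it was 0.170, against 0.157 to 0.167 in the other 50 µM libraries.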

How the results depend on the processing

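Of 432 alternative values, 404 kept their direction and their side of the threshold, 13 newly passed it and 15 changed sign, none of the 15 with a call. At 10 µM against vehicle, where none of the 9 genes passed, 2 passed with DESeq2, 2 without a filter, 1 with all 12 libraries and 1 with the length offset, and 0 to 2 with 1 library left out. At 50 µM against vehicle 1 to 3 passed with 1 library left out, and 3 without vehicle replicate 4. Between the doses 4 or 5 passed in every alternative. At 50 µM against vehicle *Mertk* was 0.0123 with limma-voom and 0.0072 with the replicate block, and -0.129 to 0.0881 with 1 library left out. In the same comparison with 1 library left out *Mfge8* lay between -0.0496 and 0.120 and *Trem2* between -0.0126 and 0.172. Between the doses *Tyro3* lay between -0.303 and 0.0618 and *Pros1* between -0.0536 and 0.0841. With 1 CPM added, the log2 ratio of *Gas6* to *Pros1* at 10 µM against vehicle was -0.0346. The causes of these changes were not tested. Same-numbered libraries correlated between -0.242 and 0.142 in their deviations from the group means. These deviations also hold differences of whole libraries, such as the length trends. They therefore cannot settle whether libraries of equal number share a source. The replicate block changed no call of the 9 genes, and moved the count over all genes at 10 µM from 61 to 3, from 2010 to 1830 at 50 µM and from 2289 to 2200 between the doses; the 5 other clearance genes called at 10 µM became 0. Under the block the call of *Rubcn* at 50 µM against vehicle was lost (adjusted p = 0.0586). Over all genes, 10 µM against vehicle gave 250 calls with DESeq2, 150 without a filter, 118 with all 12 libraries, 101 with the length offset, and 4 (without 10 µM replicate 2) to 122 (without vehicle replicate 4) with 1 library left out, each of the 8 moving it by over 1.5 times. At 50 µM against vehicle that range was 1248 (without vehicle replicate 3) to 2689, with 1313 without 50 µM replicate 2. Ratios without 1 library had no test, since 3 against 4 cannot go below 0.0571. *Gas6* had the fewest reads of the 9 genes, 12 to 40 per library.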
